A study of Mus musculus with 6 samples.

Results

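Ubiquitin-conjugating enzymes (E2s) are the middle step of the cascade that attaches ubiquitin to proteins. An E1 enzyme activates ubiquitin, an E2 takes it up on a catalytic cysteine, and an E3 ligase brings the loaded E2 to the substrate. Related E2s carry NEDD8 or other ubiquitin-like proteins, and different E2s set whether a single ubiquitin or a chain of a given linkage is built. In fully grown oocytes, which are transcriptionally quiet and live on stored transcripts and proteins, ubiquitin-dependent degradation governs the release from prophase arrest and the passage through meiosis. The genes described here were taken by name. They are the 36 rows of the count table, out of 25239 genes, whose symbol begins with Ube2 followed by a letter, apart from Ube2c and Ube2s, which serve the anaphase-promoting complex. The name also brings in a pseudogene, Ube2d-ps, and Ube2cbp, which is named for binding an E2 and is not one itself.

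The study compared germinal vesicle (GV) oocytes, that is, oocytes still arrested in prophase, that had been injected with a mixture of phthalate metabolites against controls injected with water. Both groups came from CD-1 females aged 4 to 6 weeks, and the injection was made into cumulus-oocyte complexes taken from antral follicles. After injection both groups were kept in maturation medium with 10% serum, 200 mIU/mL follicle-stimulating hormone and 50 µg/mL pyruvate, and they were collected while still at the GV stage. Each group has 3 Smart-seq3 libraries (full-length cDNA from oligo(dT) priming, read as 150-base pairs), and each library is labelled as an oocyte. The composition and dose of the mixture and the time in culture are not given in the sources used here.

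No label names an animal or a culture, and the extraction protocol leaves unclear whether 3 oocytes or 1 were taken for a group. Each group therefore counts as 1 sample: no test was made, and every interval below covers counting error only. Libraries held 252267 to 300917 gene counts. All 12 oocyte markers checked were detected, with 7074 to 8857 counts per library, among them the growth factor gene Gdf9 and the zona pellucida gene Zp3. Of 20 cumulus and granulosa markers 9 had a count, 10 to 37 counts per library in all, and Nr5a2 alone gave 64 of the 73 counts in water and 39 of the 54 in phthalate libraries. The 45S ribosomal precursor Rn45s took 2.02%, 2.32% and 2.35% of counts in the water libraries and 3.54%, 2.89% and 3.38% in the phthalate libraries, so this share separated the groups.

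The feature that marks most E2s is short. A His-Pro-Asn triplet (HPN), whose asparagine takes part in catalysis, stands a few residues before the cysteine that carries ubiquitin. In the coding transcripts of GENCODE M21 (GRCm38), 20 members held HPN followed by a cysteine after 7 or 8 further residues, 33 or 36 bases in all. In the longest coding transcript of each gene, the same pattern was found in 89 of 21877 protein-coding genes scanned (0.407%), and HPN alone in 823 (3.76%). Members were searched in all their coding transcripts, so these shares follow a stricter rule than the count of members. The windows below belong to the members on which the results turn, and they are printed to show what these members share and how near some of them are to one another. Each reads 5′ to 3′ on the coding strand, and capitals mark the HPN codons and the cysteine codon.
Ube2d3: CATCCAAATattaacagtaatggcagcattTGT
Ube2t: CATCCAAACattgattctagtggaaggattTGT
Ube2k: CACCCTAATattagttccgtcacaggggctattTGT
Ube2a: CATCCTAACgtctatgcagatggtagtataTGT
Ube2b: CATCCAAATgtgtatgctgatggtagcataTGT
Ube2h: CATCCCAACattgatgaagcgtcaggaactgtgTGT
Ube2n: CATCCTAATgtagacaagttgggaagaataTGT
The window of Ube2d3 lies at chr3:135459999-135460031, that of Ube2t at chr1:134971296-134971328, that of Ube2k at chr5:65581410-65581445 and that of Ube2n at chr10:95541403-95541435, each within 1 coding exon. Those of Ube2a, Ube2b and Ube2h cross an exon junction. Ube2h and Ube2k have the longer spacing of 36 bases. Ube2a and Ube2b, both descended from yeast Rad6, differ at 5 bases of the window, and Ube2d3 differs from its close relative Ube2d1 at 6 and from Ube2t at 8.

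Another 14 members had a coding transcript but no HPN in it, and they fall into recognisable kinds. Ube2v1 and Ube2v2 are E2 variants that lack the catalytic cysteine and work as partners of Ube2n. Others keep a catalytic cysteine in a different setting: Ube2e1, Ube2e2 and Ube2e3, the membrane-anchored Ube2j1 and Ube2j2, Ube2w, Ube2o, Ube2z and the Ube2q group (Ube2q1, Ube2q2 and Ube2ql1). Ube2cbp was the last of the 14. Ube2u had HPN without a cysteine at that spacing, and the pseudogene Ube2d-ps had no coding transcript. Among the 13 members abundant enough for a ratio, 11 held the full pattern and Ube2w and Ube2o did not.

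E2 transcripts were widely detected in these oocytes. A count was present in at least 1 library for 31 of 36 members (86.1%), against 50.7% of all genes in the table, and 20 members had a count in all 6 libraries. In every library 5 members were at 0: Ube2d2b, Ube2dnl1 and Ube2dnl2, which resemble the Ube2d genes, Ube2l6, the E2 of the interferon-induced modifier ISG15, and Ube2ql1. No count among the 1676410 gene counts of all libraries allows a level of up to 1.79 CPM (counts scaled to 1000000 per library). A mean count of at least 10 over the 6 libraries, the level at which a ratio between groups was computed, was reached by 13 members (36.1%, against 17.9% of all genes), and these held 90.8% of the family's counts. The 18 members detected below that level held 384 counts together, and the highest of them, Ube2e3, had 50.

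Levels were unequal across the family. Divided by the length of the longest coding transcript, Ube2d3 had the highest mean level, 191 CPM per kb (144 to 236 over the 6 libraries), and Ube2t the next, 168 CPM per kb (130 to 205). These ranges overlapped, so the order of Ube2d3 and Ube2t was not resolved with these lengths. With the same lengths, every library's value for both lay above every library's value for Ube2k, the next at 71.6 CPM per kb (50.8 to 90.8). From Ube2k downward each member's range overlapped that of the next. Among those below it were Ube2a at 56.5, Ube2d2a at 53.7, Ube2w at 47.0, Ube2g1 at 40.7, Ube2b at 29.9 and Ube2g2 at 27.5 CPM per kb. Against 4467 genes with a ratio and a length, whose median was 30.7 CPM per kb, Ube2d3 stood at percentile 90.4, Ube2t at percentile 89.1 and Ube2k at percentile 74.5. With the median instead of the longest transcript length the same 10 members were highest, but Ube2d2a moved from place 6 to place 2, ahead of Ube2t. Mean levels were then 652 CPM per kb for Ube2d3, 240.9 for Ube2d2a, 240.7 for Ube2t and 227 for Ube2k. The step from Ube2t down to Ube2k and the nearness of Ube2d3 and Ube2t thus rest on the longest lengths. The lengths rest on annotated transcripts, and which of them the oocyte uses was not measured.

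**Figure D1:**
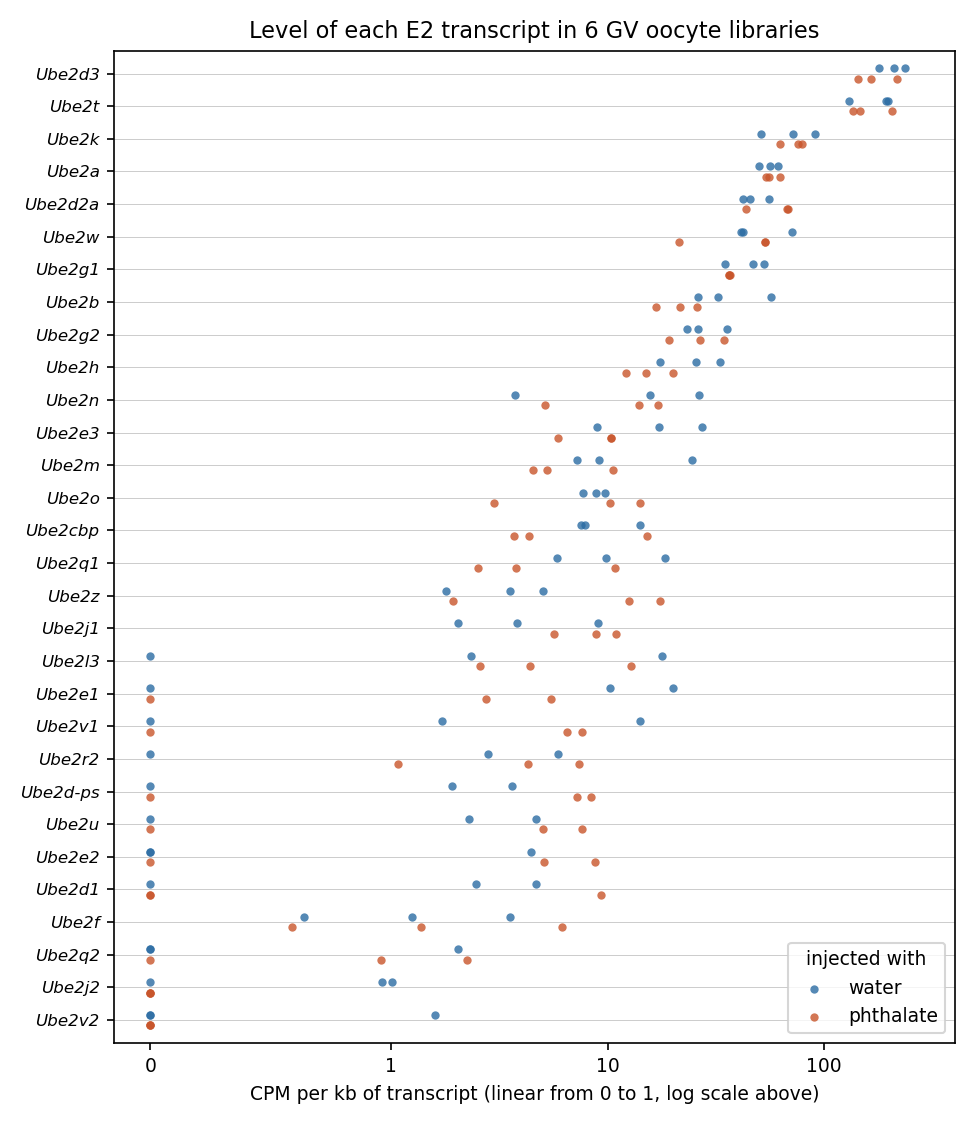
Level of 30 of the 31 detected E2 transcripts in each library, in CPM per kb of the longest coding transcript (horizontal axis, linear from 0 to 1 and logarithmic above), ordered by mean. Each point is 1 library, blue for water and orange for phthalate; Ube2d3 and Ube2t lie to the right of all others, and the colours intermingle in most rows.

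The E2s that start chains or serve many ligases made up the largest share, 41.9% of the family's counts, chiefly through 1 gene. Ube2d3, which works with a very broad set of E3 ligases (chr3:135438232-135468214, plus strand), held 29.6% of family counts. It had 191, 269 and 229 counts in the water libraries and 142, 189 and 213 in the phthalate libraries. The phthalate libraries numbered 1 and 2 were the lowest after scaling (550 and 627 CPM), while the third (827 CPM) lay within the water range of 688 to 903 CPM. Summed, 689 counts in water and 544 in phthalate gave a log2 ratio of -0.27, with an exact (Clopper-Pearson) 95% interval of -0.43 to -0.10. Because most low counts in the table are even (69.9% of values from 1 to 20), it seems that each mate of a pair added its own count, and the interval was also computed on halved counts, which gave -0.50 to -0.034. With single libraries left out the log2 ratio reached from -0.45 (without phthalate library 3) to -0.18 (without water library 2) and -0.16 (without phthalate library 1).

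The other Ube2d genes lay lower. Ube2d2a had 29, 41 and 32 counts in water and 28, 51 and 43 in phthalate libraries. Its log2 ratio of 0.33 (-0.060 to 0.73) was the highest of the 13 members with a ratio, and the groups overlapped. Ube2d1 was nearly absent, with 0, 2 and 1 counts in water and 0, 4 and 0 in phthalate, and Ube2d2b had none. The pseudogene Ube2d-ps had 0, 2 and 1 counts in water and 4, 4 and 0 in phthalate libraries. Ube2d2a and Ube2d3 share stretches of at least 95% identity with transcripts of other genes over 17.9% and 14.2% of their length, so some of their reads could have been placed elsewhere.

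Ube2w, which attaches the first ubiquitin to the amino terminus of a protein, had 25, 46 and 26 counts in water and 12, 35 and 30 in phthalate libraries. The lowest and the highest libraries differed by more than the groups, and the log2 ratio was -0.26 (-0.71 to 0.19). Its sign turned without water library 2 (0.045) or without phthalate library 1 (0.036). Ube2e1, Ube2e2 and Ube2e3, relatives of Ube2d with an extended amino terminus, were all below the level for a ratio. Ube2e3 led with 17, 6 and 11 counts in water and 6, 4 and 6 in phthalate. Ube2e1 had 4, 0 and 8 counts in water and 2, 0 and 1 in phthalate, and Ube2e2 had 0, 2 and 0 against 2, 4 and 0. Ube2e1 overlaps the more abundant Nkiras1 (223 counts) and shares 79.1% of its transcript with other annotated genes, so its few counts are uncertain. Ube2l3, the E2 of HECT and RING-between-RING ligases, ranged from 0 to 15 counts within the water group alone (15, 0 and 2, against 10, 4 and 2 in phthalate), and 59.6% of its transcript is shared with 8 other genes.

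Next came the E2s that build chains of a single linkage, with 25.9% of family counts. Ube2k, which extends degradation-type chains, had 69, 104 and 126 counts in water and 96, 92 and 99 in phthalate. Its log2 ratio of 0.014 (-0.22 to 0.25) was the smallest in size among the 13 members with a ratio. The water libraries spanned the phthalate ones entirely, and the sign of the ratio turned without water library 1 (-0.17), phthalate library 1 (-0.033) or phthalate library 3 (-0.057). Without water library 3 the ratio was 0.22. Ube2g1 and Ube2g2, related E2s of degradation-type chains of which Ube2g2 works at the endoplasmic reticulum, had 269 and 94 counts in all. Ube2g1 had 38, 55 and 59 counts in water and 37, 43 and 37 in phthalate, a log2 ratio of -0.30 (-0.66 to 0.053). For Ube2g2 the counts were 20, 14 and 15 in water and 14, 21 and 10 in phthalate, a log2 ratio of -0.050, which turned positive without water library 1 (0.14) or phthalate library 3 (0.13). Neither interval excluded 0, and the libraries of the groups overlapped for both genes.

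Ube2n builds the non-degradative chains of signalling and DNA repair as a dimer with Ube2v1 or Ube2v2. It was the most variable of the 13 members, with 4, 18 and 29 counts in water and 14, 6 and 17 in phthalate (coefficient of variation of CPM 61.2%). Its log2 ratio of -0.39 (-1.04 to 0.25) changed sign without water library 3 (0.24) or without phthalate library 2 (0.017). The partners were scarcer: Ube2v1 had 8, 0 and 1 counts in water and 4, 4 and 0 in phthalate, and Ube2v2 had 2 counts, both in water library 2. Other annotated genes share 95.9% of the Ube2v1 transcript, so its count may include or lack reads of these copies, which was not tested. The remaining gene of this kind, Ube2r2, a relative of the SCF ligase partner Cdc34, had 0, 3 and 6 counts in water and 4, 8 and 1 in phthalate.

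Chromatin and DNA repair E2s held 13.6% of family counts and included the gene with the largest difference between the groups among the 13 members with a ratio. Ube2a and Ube2b work with Rad18 on the sliding clamp PCNA and with Rnf20 and Rnf40 on histone H2B. Ube2b (chr11:51985138-52004145, minus strand) had 16, 14 and 29 counts in water and 12, 9 and 10 in phthalate. After scaling these were 57.6, 47.0 and 102 CPM against 46.5, 29.9 and 38.8 CPM. All 3 phthalate libraries lay below all 3 water libraries, narrowly so for the pair at 46.5 and 47.0 CPM. The summed counts, 59 and 31, gave a level 1.81-fold lower in phthalate, a log2 ratio of -0.86 with an interval of -1.53 to -0.20, or -1.84 to 0.078 on halved counts. Water library 3 carried much of this: without it the log2 ratio was -0.46, short of 1.5-fold. With plain library totals in place of scaled ones, the groups overlapped.

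Ube2a (chrX:36874295-36884222, plus strand) was more even. Its counts were 24, 29 and 30 in water and 24, 29 and 28 in phthalate libraries, a log2 ratio of 0.038 (-0.42 to 0.50). Its coefficient of variation of 8.41% was the lowest of the 13 members, and its ratio turned negative without water library 1 (-0.034) or phthalate library 3 (-0.035). The difference between the ratios of Ube2b and Ube2a was not tested. Ube2t, the E2 of the Fanconi anaemia core ligase in crosslink repair, had 61, 64 and 41 counts in water and 39, 49 and 59 in phthalate. Its log2 ratio was -0.10 (-0.43 to 0.23), and the libraries of the groups were interleaved.

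E2s of ubiquitin-like modifiers held 9.56% of family counts. The NEDD8 enzymes among them, which modify cullins, were sparse. Ube2m had 10, 4 and 3 counts in water and 2, 2 and 4 in phthalate, and Ube2f had 1, 6 and 2 against 2, 1 and 9. Ube2z, which is charged by the alternative E1 Uba6, had 2, 6 and 4 counts in water and 13, 21 and 2 in phthalate libraries. Within the phthalate group alone Ube2z thus ranged from 2 to 21 counts.

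Ube2h was the other member past 1.5-fold. It is the E2 of the CTLH ligase (chr6:30211289-30304539, minus strand) and had 33, 46 and 23 counts in water and 24, 17 and 18 in phthalate. In CPM these were 119, 154 and 81.1 against 92.9, 56.4 and 69.9, so the lowest water library lay below the highest phthalate one. Summed counts of 102 and 59 gave a level 1.64-fold lower in phthalate, a log2 ratio of -0.72 with an interval of -1.21 to -0.24, or -1.42 to -0.035 on halved counts. Without water library 2 the log2 ratio was -0.47 and without phthalate library 2 it was -0.54, both short of 1.5-fold. Transcripts of 3 other annotated genes match 63.1% of the Ube2h transcript, so its count may include or lack reads of near-identical copies.

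The remaining members were low. Ube2o, a large protein that combines E2 and E3 activity, had 14, 12 and 13 counts in water and 19, 16 and 4 in phthalate, with equal sums of 39 and a log2 ratio of 0.073, which turned negative without water library 2 (-0.019), phthalate library 1 (-0.35) or phthalate library 2 (-0.027). Of the endoplasmic reticulum enzymes, Ube2j1 had 2, 4 and 9 counts in water and 10, 6 and 8 in phthalate, and Ube2j2 had 2 counts in all. Ube2q1 had 5, 9 and 16 counts in water and 2, 10 and 3 in phthalate, while its paralog Ube2q2 had 5 in all. Ube2u gave 8 counts in all, and Ube2cbp 15 in water and 11 in phthalate libraries. At these depths no group difference could be read for any of them.

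Across the family, the 2 members that were lower by at least 1.5-fold in phthalate, Ube2h and Ube2b, stood beside 7.83% of all 4511 genes with a ratio, and the 0 members higher by that factor beside 6.76%. Non-overlapping libraries were found below water for 1 member, Ube2b, against 4.97% of all genes, and above water for 0 members, against 5.1%. With 13 members these shares correspond to about 1 gene in each direction, so the counts are near the background. The median log2 ratio of the 13 members was -0.21, against 0.0096 over all genes with a ratio, and 9 of the 13 were negative (69.2%, against 48.7% of all genes). Counting intervals lay wholly below 0 for 3 members, Ube2h, Ube2d3 and Ube2b, against 11.2% of all genes. On halved counts they did so for 2, Ube2h and Ube2d3, against 4.43%. Without phthalate library 2 the median was -0.027, the widest departure over all libraries left out in turn. Of the 13 members, 11 lay between the 5th and 95th percentiles of all genes (-0.69 to 0.66), and Ube2h and Ube2b lay below.

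**Figure D2:**
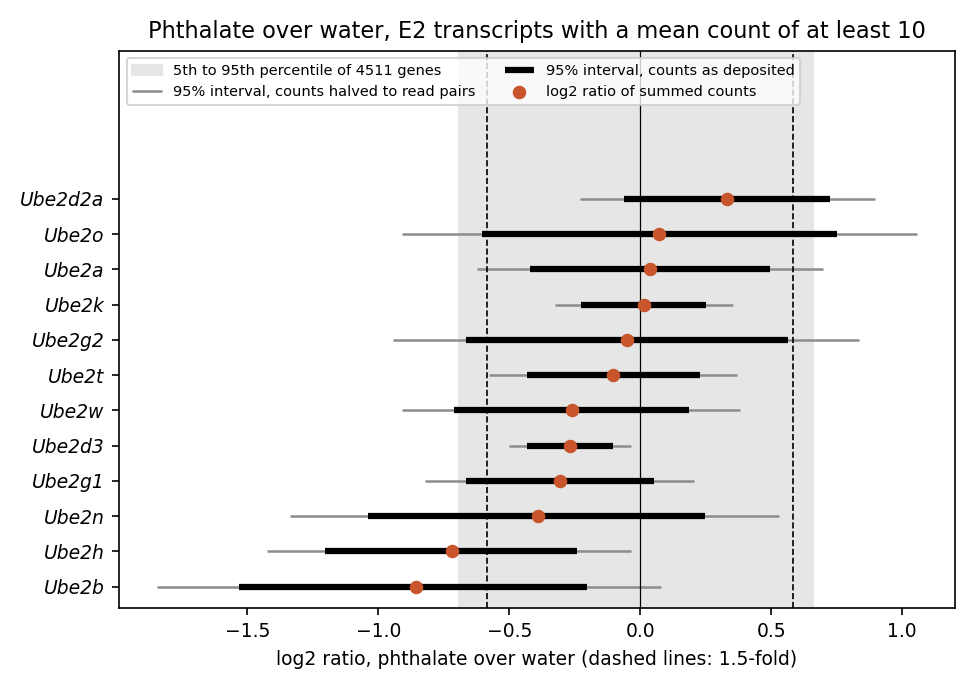
Log2 ratio of summed counts, phthalate over water, for 12 of the 13 E2 transcripts with a mean count of at least 10 (points), with 95% counting intervals on counts as deposited (thick lines) and on halved counts (thin lines). Dashed lines mark 1.5-fold and the grey band the 5th to 95th percentile of all 4511 genes; only Ube2h and Ube2b lie beyond the lower dashed line and none beyond the upper.

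**Figure D3:**
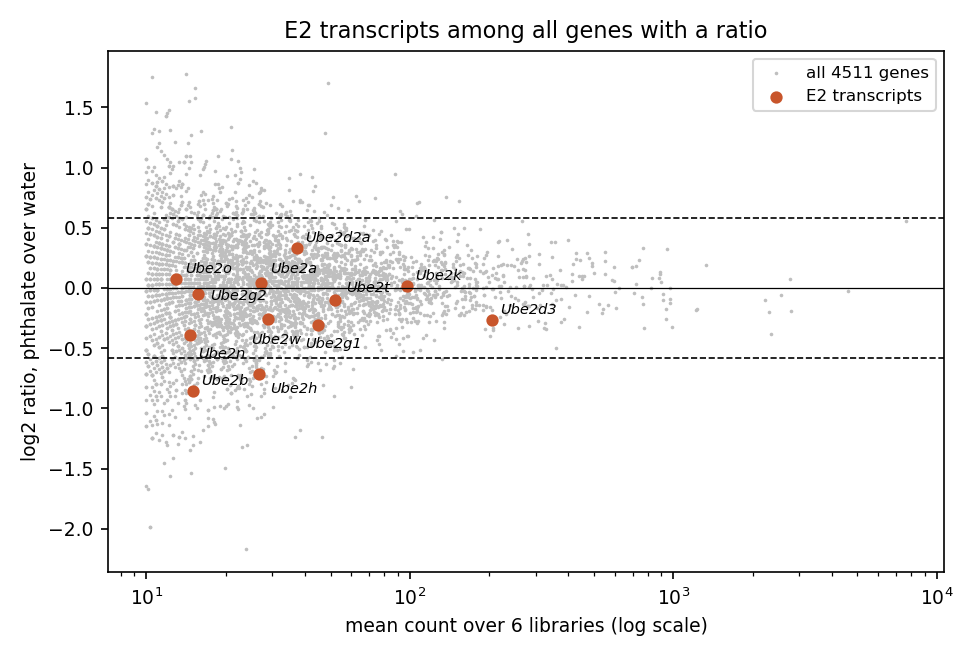
Log2 ratio (vertical axis) against mean count over the 6 libraries (horizontal axis, log scale) for all 4511 genes with a ratio (grey) and 12 of the 13 E2 transcripts (orange). Ratios of all genes spread more widely at low counts, where Ube2b lies, and the most abundant member, Ube2d3, is at -0.27.

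Spread over libraries was modest for the family. The median coefficient of variation of CPM was 22.1% over the 13 members, against 28.3% over all genes with a ratio. Within the water group it was 21.8% (23.6% over all genes), and within the phthalate group 23.3% (26.5%). Mean counts differ between the members and the other genes, and the coefficient of variation falls as counts rise.

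Taking every member into account, also those too low for a ratio, E2 transcripts made up 0.244%, 0.271% and 0.274% of gene counts in the water libraries and 0.230%, 0.226% and 0.242% in the phthalate libraries. All 3 phthalate values lay below all 3 water values, narrowly at 0.242% against 0.244%. Over the group sums the share was 0.264% in water (2251 of 854185 counts, exact binomial 95% interval 0.253 to 0.275) and 0.232% in phthalate (1911 of 822225, 0.222 to 0.243), a log2 ratio of -0.18 (-0.27 to -0.093, or -0.31 to -0.056 on halved counts). The separation of libraries was not kept when Ube2d3 was left out (0.173%, 0.181% and 0.194% in water against 0.174%, 0.162% and 0.164%). It was also lost without Rn45s, whose share was higher in every phthalate library (0.249%, 0.277% and 0.281% in water against 0.238%, 0.232% and 0.250%), and on scaled totals. The log2 ratio of the share stayed negative in each case, at -0.14 without Ube2d3, -0.17 without Rn45s and -0.16 on scaled totals. Fewer copies of E2 transcripts and more of other transcripts cannot be told apart in a share.

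**Figure D4:**
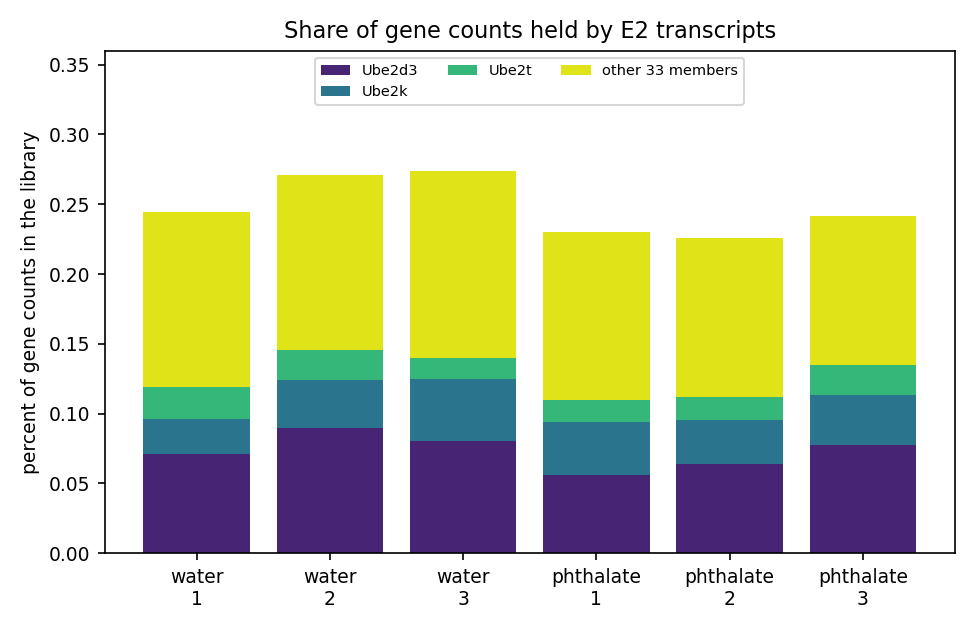
Percent of gene counts held by E2 transcripts in each library (stacked bars from 0), split into the 3 members with most counts and the other 33. The 3 water bars reach 0.244 to 0.274% and the 3 phthalate bars 0.226 to 0.242%, with Ube2d3 the segment at the base and the largest of the 3 named.

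The rest of the conjugation pathway was described by the same counts, from lists of genes chosen by function. Upstream, 3 of 11 E1 genes had a ratio, none past 1.5-fold, with a median log2 ratio of -0.19. Uba1, the main ubiquitin E1, had 123, 148 and 117 counts in water and 88, 120 and 147 in phthalate (-0.055), and the alternative E1 Uba6 was too low for a ratio (25 counts in water, 20 in phthalate). Of 9 E2s that do not carry the Ube2 name, 3 had a ratio, none past 1.5-fold, with a median of -0.075. Among 14 genes of ubiquitin and its relatives 11 had a ratio, 0 were higher and 2 lower by 1.5-fold, among them Sumo2, beside 6.76% and 7.83% of all genes, and the median was 0.032. Libraries did not overlap for 1 of the 11 below water and 0 above, beside 4.97% and 5.1% of all genes. Sumo2, a ubiquitin-like modifier, had 33, 32 and 18 counts in water and 10, 19 and 14 in phthalate, a log2 ratio of -0.88 (-1.70 to -0.091 on halved counts).

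Genes of ubiquitin itself were abundant. The polyubiquitin gene Ubb, which encodes several ubiquitins in a row, had 2332, 3276 and 2531 counts in water and 1143, 1852 and 2939 in phthalate. Its log2 ratio was -0.38, and after scaling 2 phthalate libraries lay below the water range and the third above it. Rps27a, which encodes ubiquitin fused to a ribosomal protein, had a log2 ratio of 0.36, so these genes differed in sign.

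Downstream, 34 of 58 E3 ligases and cofactors that work with named E2s had a ratio. Of these, 4 were higher by 1.5-fold (Ubr2, Dcun1d5, Cul5 and Nedd4) and 4 lower (among them Pias2, Arih1 and Huwe1), beside 6.76% and 7.83% of all genes, and the median was 0.055. Libraries did not overlap for 2 of the 34 above water and 2 below, beside 5.1% and 4.97% of all genes. Arih1, a ligase that takes ubiquitin from Ube2l3, had 23, 37 and 35 counts in water and 16, 21 and 15 in phthalate, a log2 ratio of -0.80 without overlap between the groups. The large HECT ligase Huwe1 had 34, 59 and 41 counts in water and 16, 42 and 15 in phthalate, also -0.80, with overlapping groups. Cul5, a cullin scaffold, had 22, 19 and 11 counts in water and 46, 20 and 10 in phthalate, a log2 ratio of 0.62 in which only phthalate library 1 lay above the water range. The E2s of the anaphase-promoting complex had log2 ratios of opposite sign, both within 1.5-fold, and overlapping groups: Ube2c had 81, 51 and 59 counts in water and 35, 54 and 38 in phthalate (-0.52), and Ube2s had 83, 65 and 68 against 85, 113 and 55 (0.30).

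**Figure D5:**
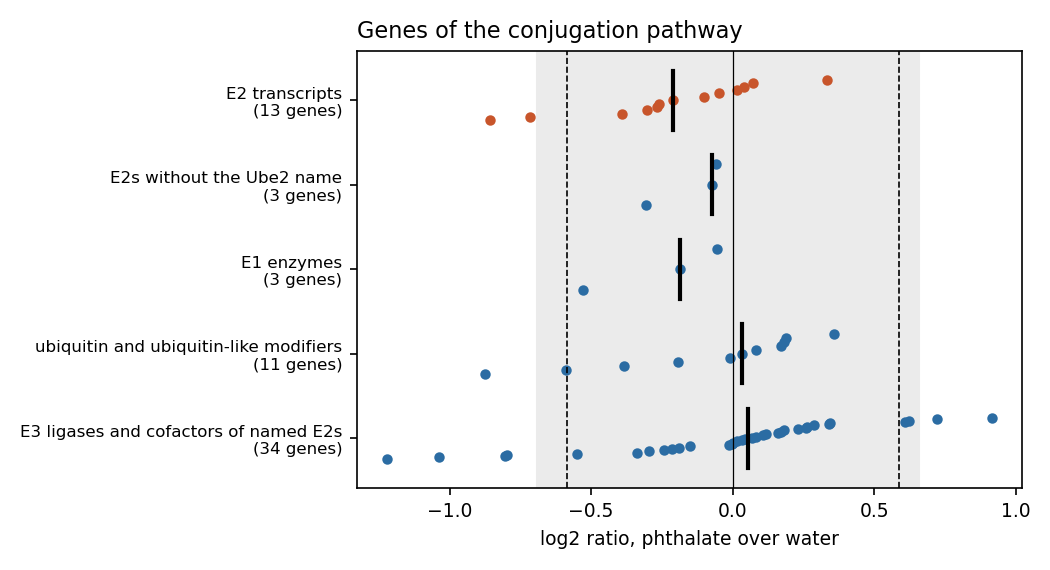
Log2 ratio, phthalate over water, of each gene with a ratio in the E2 family (orange) and in 4 lists of the conjugation pathway (blue), with the median of each list as a black bar. Dashed lines mark 1.5-fold and the grey band the 5th to 95th percentile of all genes; the E2 median lies at -0.21 and the E3 median at 0.055.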

How the data were processed

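The authors deposited 1 table of read counts per gene with 6 columns, 1 per library, and 92 ERCC spike-ins, which were left out of totals. Per the submitters' processing notes, cutadapt, Trimmomatic, HISAT2, DESeq2 and the mm10 build were used; roles, versions, the counter, strand use and the handling of molecular identifiers are not given in the sources used here. From the deposited counts, TMM factors from edgeR 4.0.16 (under R 4.3.3) scaled the library totals, and counts of each group were summed. Log2 ratios with exact (Clopper-Pearson) 95% intervals of 2 counts given their sum were computed for the 4511 genes that averaged 10 or more counts over the 6 libraries. A factor of 1.5 served as a size rule, since each library is labelled as an oocyte, no animal is named, and no test was made. The computation was tested on simulated counts. Transcript lengths, coding windows and copies came from GENCODE M21, and gene coordinates from RefSeq GRCm38.p6; all 36 members matched both. A copy was an alignment of at least 100 bases at 95% identity to a transcript of another gene. Proteins were read by translating coding transcripts, and identities between whole proteins were not computed. The members and gene lists were chosen with earlier results of these data known. Full values were given for members past 1.5-fold, without overlap between groups, among the 10 highest per kb, or in close pairs, and for genes of the pathway past 1.5-fold with a mean count of at least 20 and those all E2s need. Some members and pathway genes count in every total but are not reported here by name.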

Additional observations from a re-analysis of the deposited data

How the results depend on the processing

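Depth limits these results: with 252267 to 300917 counts per library, 18 detected members were too low for a ratio, and the intervals cover counting error only. No paired analysis was possible because the results come from no test: the labels tie no library to an animal or culture, and libraries were not treated as replicates. Of 152 ratios of single members under alternatives, 151 stayed within the main interval, and the other was Ube2d3 without phthalate library 3 (-0.45). The alternatives reuse the same counts and the intervals are wide, so staying inside them says little. Of the 152, 16 had another sign than the main ratio. DESeq2 size factors, plain totals, edgeR's own filter and equal weights for libraries left the counts of members past 1.5-fold at 0 higher and 2 lower. A mean count of at least 20 was reached by 9 members, and Ube2b was not among them. Of these 9, 1 was lower (Ube2h) and 0 were non-overlapping below. The pathway lists then held 1 gene higher and 3 lower, against 4 and 6. Of all genes 3.92% were then higher, 4.13% lower and 5.10% non-overlapping below. Without a filter, and leaving out genes with 3 or fewer counts in each group, 28 members had a ratio: 6 were higher and 6 lower, beside 17.1% and 19.1% of all genes. With the smaller alternative factor 1 member was higher (Ube2d2a) and 3 lower (Ube2h, Ube2b and Ube2n), beside 18.7% and 18% of all genes, and at 2-fold 0 were lower, beside 1.53%. With plain totals 0 members were non-overlapping below, beside 5.59% of all genes. Leaving out each library in turn gave 1 to 3 members lower, 1 to 2 non-overlapping below, 0 to 1 above, and medians of -0.31 to -0.027. The pathway lists then held 2 to 5 genes higher and 4 to 9 lower. Of all genes, 7.32% to 9.20% were then higher, 8.14% to 10.6% lower, 9.10% to 12.5% non-overlapping below and 8.77% to 11.9% above. For the family's share the log2 ratio ranged from -0.23 to -0.14 over all alternatives. The TMM-scaled share and the halved counts were chosen after seeing the data.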
